A study of Mus musculus with 4 samples.

Results

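The genes described here are 10 homeobox genes that mark dorsal and intermediate progenitors of the neural tube, namely Msx1, Msx2, Msx3, Pax3, Pax7, Gsx1, Gsx2, Pax6, Dbx1 and Dbx2, in dorsal to intermediate order. They were chosen by name, and all 10 were found among the 54532 gene IDs of the count table and in the table of transcript abundance. The samples are cranial neural tubes microdissected from mouse embryos at embryonic day 10.5, with 2 libraries from Lats1/2 double conditional knockout embryos (DCKO) and 2 from control embryos (Control), each library from its own embryo. DCKO embryos carried floxed alleles at both copies of Lats1 and of Lats2 (Lats1 flox/flox; Lats2 flox/flox) together with the E2f1 Tg(Wnt1-cre)2Sor/+ transgene, in which Wnt1 regulatory sequences drive Cre in the dorsal neural tube and the neural crest. Control embryos lacked that transgene, and the labels do not say whether they carried floxed alleles. The dissected tissue therefore holds cells with and without Cre in DCKO, and Cre itself cannot be told apart from loss of Lats1 and Lats2.

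Progenitors of the neural tube are arranged in bands from the roof plate to the floor plate, and homeodomain transcription factors mark these bands. BMP and Wnt ligands from the dorsal midline promote the dorsal identities, and Sonic hedgehog from the floor plate promotes the ventral ones. The factors then act with bHLH proteins to set which neurons each band forms. Msx and Pax3 proteins are also made outside the neural tube, in neural crest and its derivatives, and Msx genes in surface ectoderm and head mesenchyme as well.

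Library totals were 45102704 and 41798361 counts in DCKO and 55137810 and 45190611 in Control. The genes Gm26917, Lars2, AY036118 and Gm42418 together took 24.6% and 29.9% of the counts in DCKO and 13.1% and 12.1% in Control, and the part of this difference in TPM levels and in library totals was not tested. Lats1 had 30.02 and 29.7 CPM (counts scaled to library size by trimmed mean of M values) in DCKO and 44.2 and 65.6 CPM in Control, with an adjusted p of 0.0538 in edgeR, and Lats2 overlapped between groups. The neural marker Sox2 was present in all libraries, at 74.8 and 78.9 CPM in DCKO and 142 and 144 CPM in Control. Counts of Xist, the RNA of the silenced X, were 8 and 22 in DCKO and 10837 and 7786 in Control, so embryo sex and genotype cannot be told apart. Levels of forebrain and hindbrain genes also differed between libraries. Of 10 forebrain genes, chosen after their values were seen, 10 had their highest level in Control 2, and their summed level was 9.52 and 18.3 CPM in DCKO and 5.53 and 82.6 CPM in Control. Of 7 hindbrain genes chosen likewise, 5 were highest in DCKO 2, and their summed level was 2.03 and 7.58 CPM in DCKO and 6.23 and 5.75 CPM in Control. Only 3 of these 7 had enough counts to be tested. Genes chosen on their values cannot show whether the dissections differed, and this was not tested.

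Of the 10 genes, 6 fell in DCKO. They were Msx3, Pax7, Gsx1, Pax6, Dbx1 and Dbx2, at a Benjamini-Hochberg adjusted p under 0.05 in edgeR's quasi-likelihood test over all 19207 tested genes, of which 8.11% were called lower and 8.93% higher. Gsx1 was not detected in DCKO, Msx3 and Dbx1 were at 2.53% and 5.90% of their Control mean CPM, and Pax7 and Pax6 were at 27.5% and 37.6%. No gene of the 10 was called higher in edgeR. Msx2 had an unadjusted p under 0.05 with a positive change, DESeq2, in which 13.5% of genes were called lower and 13.5% higher, called Msx2 higher, and limma-voom did not. The median log2 fold change of the 10 genes was -2.35, against 0.03 over all tested genes. The sizes did not follow the dorsal to intermediate order, since Msx1, Msx2 and Pax3, which did not pass, and Msx3, with a log2 fold change of -5.29, are all dorsal. In bulk RNA, fewer cells of a type and less RNA per cell cannot be told apart.

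The number of calls changed with the library left out. Each such fit leaves a single library in a group, whose spread is then assumed to be that of the other group, so these fits do not give a separate estimate of it. With either Control library left out, 2 of the genes, Gsx1 and Dbx1, passed as lower, and with either DCKO library left out, 7 did. The background moved with it. Of all genes tested, 0.673% were called lower and 1.2% higher without Control 1, 0.354% and 0.761% without Control 2, 10.9% and 10.9% without DCKO 1, and 12.5% and 12.8% without DCKO 2. Gsx2 was not fitted without Control 2, where no Control count was left.

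**Figure D1:**
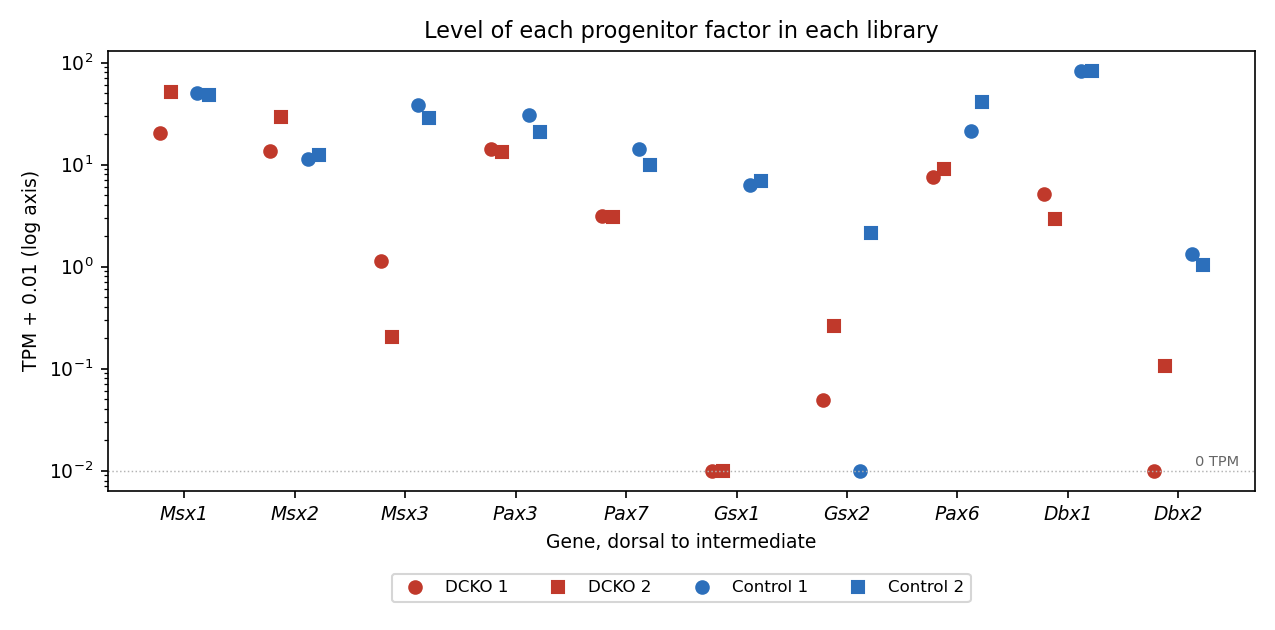
TPM (transcript abundance scaled by length and depth) of each gene in each library on a log axis, with 0.01 added so that 0 can be drawn. DCKO 1 and DCKO 2 lie below both Control libraries for Msx3, Pax3, Pax7, Gsx1, Pax6, Dbx1 and Dbx2, above both for Msx2 in CPM and in TPM, on either side of both for Msx1, and between the Control libraries for Gsx2.

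**Figure D2:**
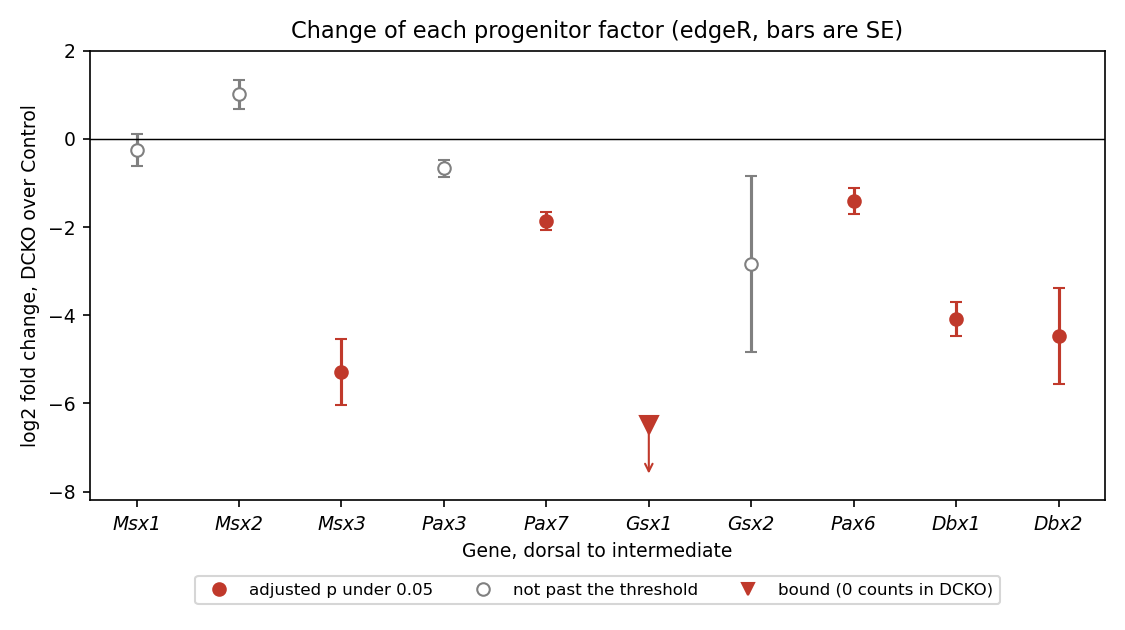
Log2 fold change of each gene, DCKO over Control, from edgeR, with its SE as bars (2 libraries per group). Filled points passed the threshold, open points did not, and the triangle is the bound for Gsx1, which had 0 counts in both DCKO libraries. Msx2 at 1.01 is the only point above 0.

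The 3 Msx genes encode repressors with closely related homeodomains, and Msx3 is known for expression in the dorsal neural tube alone, while Msx1 and Msx2 are BMP-responsive genes of the dorsal midline, neural crest and ectoderm. They behaved differently here. Msx3 (ENSMUSG00000025469, chromosome 7, 140046157 to 140049089, minus strand, in GENCODE M21 on GRCm38, as for all genes here) fell to 1.82 and 0.298 CPM in DCKO, against 43.7 and 40.1 CPM in Control. Both DCKO libraries were far below both Control libraries, and DCKO 2 was lower than DCKO 1. The log2 fold change of Msx3 was -5.29 (SE 0.75, adjusted p 0.0153). Without Control 1 it was -5.23 (adjusted p 0.0517) and without Control 2 -5.38 (0.0528), and without DCKO 1 and DCKO 2 it was -7.13 and -4.52.

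Msx1 (ENSMUSG00000048450, chromosome 5, 37820485 to 37824583, minus strand) had 30.04 and 64.2 CPM in DCKO and 52.3 and 60.8 CPM in Control. DCKO 1 was the lowest library and DCKO 2 the highest, so the groups overlapped. Its log2 fold change was -0.26 (SE 0.36, adjusted p 0.642), with a 95% interval of -1.17 to 0.64. The value depended on the DCKO library kept, at 0.18 (adjusted p 0.530) without DCKO 1 and -0.91 (adjusted p 0.0235) without DCKO 2. Msx2 (ENSMUSG00000021469, chromosome 13, 53466884 to 53473074, minus strand) had 24.2 and 44.3 CPM in DCKO and 14.6 and 19.5 CPM in Control. Both DCKO libraries were above both Control libraries, as for 33.6% of all tested genes. The log2 fold change of Msx2 was 1.01 (SE 0.33, adjusted p 0.0921), with a 95% interval of 0.18 to 1.84. It passed with DESeq2 (adjusted p 0.0271) and without DCKO 1 (1.37, adjusted p 0.00938), and was 0.51 (0.159) without DCKO 2.

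Within a library, where no scaling between libraries enters, the TPM ratio of Msx1 to Msx3 was 18.3 and 264 in DCKO and 1.31 and 1.67 in Control. The ratio of Msx2 to Msx3 was 12.1 and 149 in DCKO and 0.293 and 0.427 in Control. Msx2 also stood higher relative to Msx1, at 0.659 and 0.564 in DCKO and 0.223 and 0.256 in Control. With 2 libraries per group an exact permutation test of such ratios cannot reach p = 0.05, so they are given as values.

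Stretches before the transcription start in RefSeq are shown for Msx2, Msx3 and Dbx1, to set a gene that did not fall beside 2 that fell strongly. They are the 250 bases upstream of the start in RefSeq on GRCm38.p6, all on the minus strand, at chr13:53472781-53473030 for Msx2, chr7:140049089-140049338 for Msx3 and chr7:49636836-49637085 for Dbx1. In GENCODE M21 the Msx2 gene extends to 53473074, so the Msx2 stretch lies within the annotated gene, downstream of the GENCODE start. Capitals mark matches to the letters searched, which were GGAATG (the core bound by TEAD proteins, the partners of YAP), TAATTA (a core bound by many homeodomains) and CTTTGA (the core bound by TCF and LEF proteins), on both strands.
Msx2: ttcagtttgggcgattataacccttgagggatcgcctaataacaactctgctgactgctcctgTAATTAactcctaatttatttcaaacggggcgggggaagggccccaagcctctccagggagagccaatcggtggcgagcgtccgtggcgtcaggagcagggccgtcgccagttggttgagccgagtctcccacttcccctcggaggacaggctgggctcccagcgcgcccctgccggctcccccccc
Msx3: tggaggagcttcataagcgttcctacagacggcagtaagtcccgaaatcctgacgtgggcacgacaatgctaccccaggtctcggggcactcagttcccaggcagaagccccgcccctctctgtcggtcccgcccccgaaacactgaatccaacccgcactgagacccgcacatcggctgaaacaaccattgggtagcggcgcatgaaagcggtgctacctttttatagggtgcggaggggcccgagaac
Dbx1: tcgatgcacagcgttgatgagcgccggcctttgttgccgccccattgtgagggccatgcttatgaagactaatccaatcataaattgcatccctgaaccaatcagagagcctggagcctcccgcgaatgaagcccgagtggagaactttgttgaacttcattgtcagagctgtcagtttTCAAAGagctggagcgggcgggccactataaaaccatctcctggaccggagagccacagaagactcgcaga
Msx2 holds a TAATTA match, Dbx1 a CTTTGA match on the reverse strand (TCAAAG as printed), and Msx3 none of the 3. RefSeq windows were found for 9 of the 10 genes, with 2 for Pax6, and these 10 windows held 0 matches to GGAATG, 1 to TAATTA and 1 to CTTTGA. Among all 32851 windows of the same length, 12.6% held GGAATG, 4.84% TAATTA and 13.8% CTTTGA. A match describes letters in these windows only.

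Pax3 and Pax7 are paralogous paired-homeodomain factors of dorsal progenitors, Pax3 also of early neural crest, and in the midbrain Pax7 marks the tectum. Both were lower in both DCKO libraries, and only Pax7 passed. Pax7 (ENSMUSG00000028736, chromosome 4, 139737062 to 139833528, minus strand) fell to 11.5 and 9.91 CPM in DCKO, against 42.8 and 34.8 CPM in Control. The DCKO libraries lay close together, and the change in Pax7 was -1.86 on the log2 scale (SE 0.20, adjusted p 0.00927). Without Control 1 it was -1.71 (adjusted p 0.0624) and without Control 2 -2.03 (0.0504). Pax3 (ENSMUSG00000004872, chromosome 1, 78101267 to 78197134, minus strand) had 37.0 and 31.0 CPM in DCKO and 59.4 and 48.2 CPM in Control. The groups did not overlap, as with both DCKO libraries below for 32.9% of all tested genes. Its log2 fold change was -0.66 (SE 0.19, adjusted p 0.0672), with a 95% interval of -1.14 to -0.19. Pax3 passed with DESeq2 (adjusted p 0.0227), with library totals (-1.01, adjusted p 0.0199, in a fit that called 19.5% of genes lower and 6.35% higher and moved the median of all genes by -0.35) and without DCKO 1 (-0.80, adjusted p 0.0453). The TPM ratio of Pax3 to Pax7 within a library was 4.49 and 4.35 in DCKO and 2.14 and 2.09 in Control, with little spread in either group.

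Gsx1 and Gsx2 are homeodomain factors of dorsal to intermediate progenitors in hindbrain and spinal cord, and Gsx2 is also a factor of the ventral telencephalon. Gsx1 (ENSMUSG00000053129, chromosome 5, 147188696 to 147190947, plus strand) had 0 counts in DCKO 1 and DCKO 2, against 378 and 404 counts in Control, or 6.04 and 7.98 CPM. Counted against a floor of 3 counts per library, Gsx1 was at least 89.8-fold lower in DCKO (adjusted p 0.00761), and its adjusted p was 0.00123 to 0.0342 in the fits that leave out a library. At these depths 3 counts, a floor chosen here, correspond to 0.0750 and 0.0812 CPM in DCKO. The bound rests on that choice, and 0 counts do not show that Gsx1 RNA was absent. Gsx2 (ENSMUSG00000035946, chromosome 5, 75075601 to 75077893, plus strand) had 2 and 10 counts in DCKO and 0 and 117 counts in Control. Nearly all its counts came from Control 2, and Control 1 had none. Its log2 fold change of -2.84 (SE 2.00, adjusted p 0.357) had a 95% interval from -7.83 to 2.15 and was 0.19 in limma-voom, so no direction was resolved. Control 2 was also the library with the highest summed level of the forebrain genes. It had 1103 counts of Emx2, a factor of the dorsal telencephalon, against 68 and 69 in DCKO and 132 in Control 1. The part of that difference in the Gsx2 values was not tested.

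Pax6 is a paired-homeodomain factor of intermediate progenitors, forebrain and eye. Pax6 (ENSMUSG00000027168, chromosome 2, 105668900 to 105697364, plus strand) fell to 11.3 and 12.9 CPM in DCKO, against 23.7 and 40.8 CPM in Control, a change of -1.41 on the log2 scale (SE 0.30, adjusted p 0.0340). The DCKO libraries were close to each other, and Control 2 was well above Control 1, as it was for the forebrain genes. Without Control 2 the log2 fold change was -0.998 (adjusted p 0.179) and without Control 1 -1.76 (0.0562). Its antisense neighbour Pax6os1 overlaps it over 1431 bases and had 1 and 2 counts in DCKO and 0 and 2 in Control. The other 9 genes overlap no annotated gene in GENCODE M21.

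**Figure D3:**
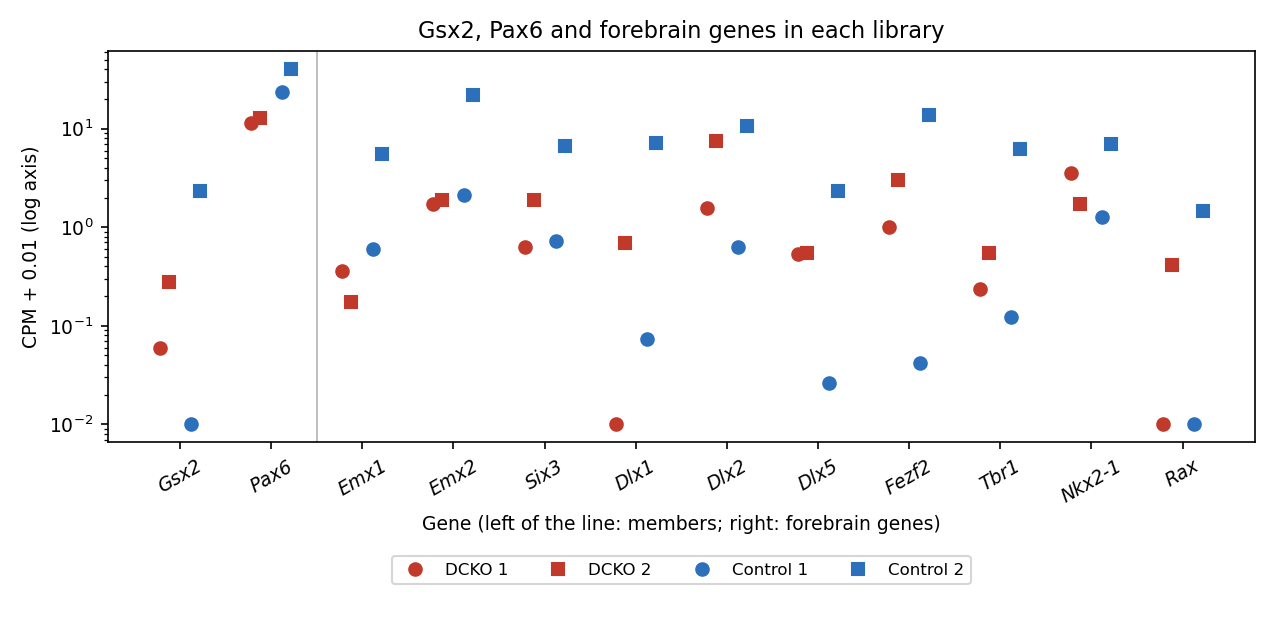
CPM of Gsx2, Pax6 and 10 forebrain genes in each library on a log axis, with 0.01 added so that 0 can be drawn. Control 2 is the highest library for every gene drawn, with 40.8 CPM of Pax6 and 21.8 CPM of Emx2, and Control 1 is the lowest library for Fezf2 and Tbr1.

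Dbx1 and Dbx2 mark the intermediate progenitors next to the alar and basal boundary, and Dbx1 cells in the hindbrain and spinal cord give rise to V0 neurons. Dbx1 (ENSMUSG00000030507, chromosome 7, 49631499 to 49636849, minus strand) fell to 8.12 and 3.98 CPM in DCKO, against 91.7 and 113 CPM in Control. In TPM, which allows for length, Dbx1 was the highest of the 10 genes in both Control libraries, and both DCKO libraries were far below them. The log2 fold change was -4.08 (SE 0.39, adjusted p 0.00788), and it was -4.69 to -3.66 in the fits that leave out a library, with adjusted p of 0.000716 to 0.0342. Dbx2 (ENSMUSG00000045608, chromosome 15, 95623563 to 95655960, minus strand) had 0 and 8 counts in DCKO and 154 and 119 counts in Control, or 0 and 0.217 CPM against 2.46 and 2.35 CPM. Its log2 fold change was -4.47 (SE 1.09, adjusted p 0.0472), close to the threshold. Without Control 1 and Control 2 the adjusted p of Dbx2 was 0.164 and 0.153. The size of its change rests on DCKO 2, since DCKO 1 had no counts, and it was -3.47 without DCKO 1, while without DCKO 2 no DCKO count was left.

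Compared per length, the order of the 10 genes differed between groups. In DCKO, Msx1 had the highest mean TPM (36.1 ± 22.02, SD, n = 2), followed by Msx2 (21.4 ± 11.04) and Pax3 (13.6 ± 0.632), and the ranges of neighbours overlapped among these. Below them stood Pax6 (8.25 ± 1.05), apart from its neighbours, then Dbx1 (4.03 ± 1.53) and Pax7 (3.07 ± 0.0761), which overlapped. Msx3 had 0.659 ± 0.655 TPM, and Gsx2, Dbx2 and Gsx1 were below 0.26 TPM in every DCKO library. In Control, Dbx1 led at 82.6 ± 0.703 TPM, followed by Msx1 (49.4 ± 1.70) and Msx3 (33.7 ± 6.83), each apart from the one above it. Msx3 and Pax6 (31.2 ± 13.9) overlapped, as did Pax6 and Pax3 (25.8 ± 7.04), and Pax7 and Msx2 (12.2 ± 3.11 and 11.8 ± 0.733). Gsx1 (6.63 ± 0.379), Dbx2 (1.18 ± 0.209) and Gsx2 (1.06 ± 1.49) were the lowest.

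The summed TPM of the 10 genes was 65.0 and 110 in DCKO and 256 and 254 in Control. Msx1 and Msx2 summed to 34.1 and 80.85 TPM in DCKO and 61.87 and 60.51 TPM in Control, with overlapping groups. Together they made up 52.4% and 73.8% of the 10-gene sum in DCKO and 24.1% and 23.8% in Control. Dbx1 and Dbx2 made up 7.86% and 2.78% in DCKO and 32.5% and 33.1% in Control. Msx3 took 1.73% and 0.179% in DCKO and 15.02% and 11.4% in Control. Msx1, Msx2 and Pax3 summed to 48.1 and 94.0 TPM in DCKO and 92.6 and 81.3 TPM in Control, with overlapping groups. The other 7 genes summed to 16.9 and 15.5 TPM in DCKO and 164 and 173 TPM in Control. This split of the 10 genes follows their changes given above, so the contrast between the sums is no separate result.

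**Figure D4:**
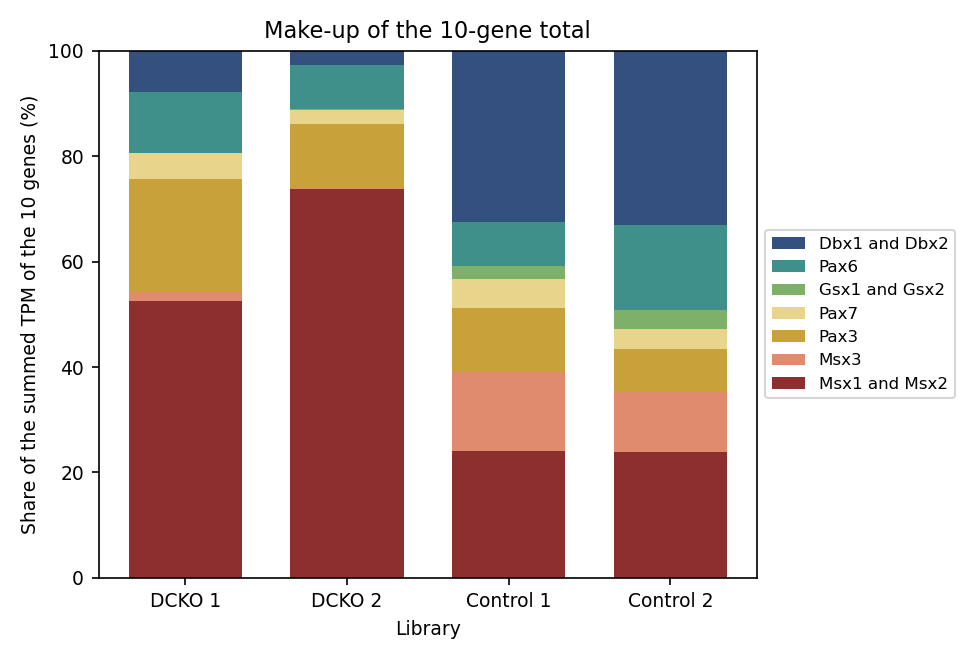
Share of the summed TPM of the 10 genes taken by each gene or gene pair in each library, in percent. Msx1 and Msx2 take 52.4% and 73.8% in DCKO 1 and DCKO 2, and Dbx1 and Dbx2 take 32.5% and 33.1% in Control 1 and Control 2.

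Most general progenitor genes of the tissue fell too. Of 10 neural progenitor markers, 7 fell (median log2 fold change -1.54), and 3 fell without Control 1 and 3 without Control 2. Sox3, an X-linked gene, fell to 21.4 and 16.5 CPM in DCKO, against 145 and 139.6 CPM in Control, while Cdh2 had 309 and 356 CPM in DCKO and 320.1 and 293 CPM in Control. To set the 10 genes against such a marker within each library, TPM ratios to Sox2 and Sox3 were taken, a choice made after their values were seen. The log2 fold changes of Sox2 and Sox3 were -0.89 and -2.91. The ratio of Dbx1 to Sox2 was 0.107 and 0.0493 in DCKO and 0.637 and 0.776 in Control, and that of Msx3 to Sox2 was 0.0234 and 0.00328 in DCKO and 0.299 and 0.270 in Control. For Pax7 it was 0.0653 and 0.0506 in DCKO and 0.111 and 0.0930 in Control. Pax3 to Sox2 overlapped between groups, at 0.293 and 0.220 in DCKO and 0.239 and 0.194 in Control. Pax6 to Sox2 was 0.157 and 0.151 in DCKO and 0.166 and 0.383 in Control, so that DCKO and Control 1 differed little. Against Sox3 the order of the groups turned round for Pax7, with ratios of 0.230 and 0.243 in DCKO and 0.109 and 0.0961 in Control, and for Pax6, with ratios of 0.551 and 0.725 in DCKO and 0.162 and 0.396 in Control. Pax3 to Sox3, unlike Pax3 to Sox2, did not overlap between groups, at 1.03 and 1.06 in DCKO and 0.234 and 0.201 in Control. The standing of Pax3, Pax6 and Pax7 among progenitor genes thus depends on the gene they are set against. Dbx1 to Sox3 stayed lower, at 0.375 and 0.237 in DCKO and 0.624 and 0.802 in Control, and so did Msx3 to Sox3, at 0.0824 and 0.0158 in DCKO and 0.293 and 0.279 in Control. Msx2 was higher in DCKO against Sox2 (0.283 and 0.489 in DCKO, 0.0877 and 0.115 in Control) and against Sox3. Msx1 overlapped between groups against Sox2, and was higher in DCKO against Sox3 (1.51 and 4.17 in DCKO, 0.385 and 0.465 in Control). Gsx1 and Dbx2 were lower in DCKO against Sox2 and Sox3, and Gsx2 overlapped.

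BMP ligands, which act upstream of the dorsal factors, changed in the opposite direction to Msx3 and Pax7, while Wnt ligands went both ways. Of 10 BMP and Wnt ligand genes, 6 rose and 0 fell, with a median log2 fold change of 1.93, and 3 rose without Control 1 and 1 without Control 2. Bmp6 rose to 58.5 and 61.7 CPM in DCKO, against 12.7 and 12.01 CPM in Control (log2 fold change 2.29), Bmp4 by 2.61, Bmp5 by 2.47 and Bmp7 by 1.92. Bmp2 (2.14) and Wnt4 (1.94) also passed as higher. Gdf7 (1.14) and Wnt1 (1.14) were higher but did not pass in edgeR (adjusted p 0.0545 and 0.0601). Wnt3 (-1.46) and Wnt3a (-0.39) were lower in both DCKO libraries than in both Control libraries and did not pass in edgeR (adjusted p 0.0541 and 0.201). Surface ectoderm also makes several of these ligands. Its marker sum was 362 and 489.9 CPM in DCKO and 17.4 and 30.3 CPM in Control, and the part of that in the ligand values was not tested. Of 12 genes that read out BMP and Wnt signalling, 3 fell and 1 rose. Those that fell were Id2 (-0.90), Id3 (-1.33) and Id4 (-1.72), which encode inhibitors of bHLH factors and respond to BMP. On the same list, Id1 (-0.73) was lower in both DCKO libraries than in both Control libraries, and Smad6 (0.56) and Smad7 (0.66) were higher. None of these passed, so the readouts went both ways. Of the Wnt readouts, Axin2 (-0.55) and Nkd1 (-0.48) were lower in both DCKO libraries than in both Control libraries, and Sp5 (0.50) was higher. Lef1 (-0.32) and Notum (-0.04) overlapped between groups, and these Wnt readouts did not pass in edgeR. The Wnt feedback gene Rnf43 rose to 3.07 and 1.46 CPM in DCKO, against 0.399 and 0.553 CPM in Control. Neither of these counts held without a Control library, when 0 of the 12 passed in edgeR, with 4 and 4 at an unadjusted p under 0.05. Of 9 roof plate genes 0 passed in edgeR, in DESeq2 or in limma-voom, with 0 at an unadjusted p under 0.05 in each of these, and 1 passed as lower without DCKO 1. Their median log2 fold change was 0.16, and Zic5 had the smallest p (-0.33, adjusted p 0.202).

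The bHLH factors that share the dorsal bands with the 10 genes fell. All 5 listed genes passed as lower, and their median was -3.24 on the log2 scale when Ptf1a, at 0 counts in DCKO, is set at its bound. Olig3, of the most dorsal progenitors, fell to 0.475 and 0.650 CPM in DCKO, against 16.98 and 23.8 CPM in Control. Neurog1 fell by 4.27 and Atoh1 by 3.24 on the log2 scale, and Neurog2 fell to 12.4 and 5.17 CPM in DCKO, against 27.1 and 48.1 CPM in Control. Without Control 1, Control 2, DCKO 1 and DCKO 2, 3, 2, 4 and 5 of them passed. Of 14 homeodomain and related factors of dorsal and V0 neurons, 8 fell and 0 rose, with a median of -2.91. Lhx1 fell to 0.600 and 0.108 CPM in DCKO, against 8.90 and 14.2 CPM in Control, and Pax2 fell by 3.59 on the log2 scale. Evx2, of the V0 neurons that Dbx1 progenitors form, was not detected in DCKO, which puts it at least 17.3-fold lower, and Lbx1 at least 15.6-fold lower. Without Control 1, 3 of the 14 passed, and without Control 2, 0 in edgeR with 10 at an unadjusted p under 0.05, while 12 passed without DCKO 1. All 5 bHLH genes and several of the neuron genes, such as Lhx2 and Lhx5, were highest in Control 2, as the forebrain genes were. The part of that difference in the bHLH and neuron gene values was not tested.

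Of 10 genes listed for ventral progenitors, 1 fell and 0 rose in edgeR, with a median of -0.56. The 1 that fell was Irx3 (-0.63, adjusted p 0.0492 in edgeR), which is not confined to ventral progenitors. At an unadjusted p under 0.05 in edgeR, 5 were lower. The count depended on the fit. It was 4 lower with DESeq2 and 5 with library totals, and 1, 0, 0 and 3 without Control 1, Control 2, DCKO 1 and DCKO 2, with 3, 2, 4 and 6 lower at an unadjusted p under 0.05. Shh had 25.6 and 27.3 CPM in DCKO and 41.2 and 33.02 CPM in Control, and Nkx6-1, of ventral progenitors, had 15.5 and 15.1 CPM in DCKO and 35.1 and 20.8 CPM in Control. Whether the dorsal and ventral lists differ was not tested. Among the Pax genes outside the 10, Pax9 rose (2.84) and Pax2 fell (-3.59), and Pax5, of the midbrain and hindbrain boundary, had 43.7 and 32.1 CPM in DCKO and 50.6 and 23.9 CPM in Control.

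Markers of other cells, among them cells that make Msx1, Msx2, Pax3 or Pax6, differed between the groups. Of 14 head mesenchyme markers, 10 were higher and 0 lower in DCKO, with a summed level of 1317 and 716 CPM in DCKO and 209.9 and 253 CPM in Control. Col1a1, a collagen gene, gave 833 and 266 CPM of this in DCKO and 61.3 and 96.2 CPM in Control, and 8 of the 14 markers were highest in DCKO 2. Of 15 surface ectoderm markers, 13 were tested, 11 were higher and 0 lower, with the sums given beside the ligands, although the epidermal keratins Krt5 and Krt14 were at or under 0.90 CPM in all libraries. The epidermal regulator Trp63 had 17.5 and 17.6 CPM in DCKO and 0.0319 and 0.0395 CPM in Control, and the mesenchymal factor Prrx1 had 61.6 and 46.0 CPM in DCKO and 14.3 and 14.2 CPM in Control. Of 10 neural crest markers, 4 were higher and 0 lower, with sums of 234 and 326 CPM in DCKO and 166 and 203 CPM in Control. DCKO 2, the library with the higher Msx1 and Msx2, was also the higher DCKO library for the crest and ectoderm sums, and it had 24.1 CPM of the crest factor Sox10 against 1.37 CPM in DCKO 1 and 1.49 and 2.21 CPM in Control. Of 10 endothelial and mural markers 8 were higher, with sums of 1061 and 1014 CPM in DCKO and 181 and 171 CPM in Control, of 10 erythroid markers 8 were lower, and of 10 eye markers 7 were tested, with 1 higher and 2 lower. Of 8 matched YAP target genes, a list that includes Lats2 itself, 5 were higher and 0 lower in edgeR. These counts fell when a Control library was left out. Without Control 1 and Control 2, 0 and 1 mesenchyme, 9 and 7 ectoderm, 0 and 0 crest, 3 and 1 endothelial and mural, and 1 and 1 YAP target genes were higher, and 6 and 2 erythroid genes were lower. The share of all tested genes at an unadjusted p under 0.05 was not taken, so no count at that level is set beside these marker counts. The part of other cells in the levels of Msx1, Msx2, Pax3 and Pax6 was not tested.

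**Figure D5:**
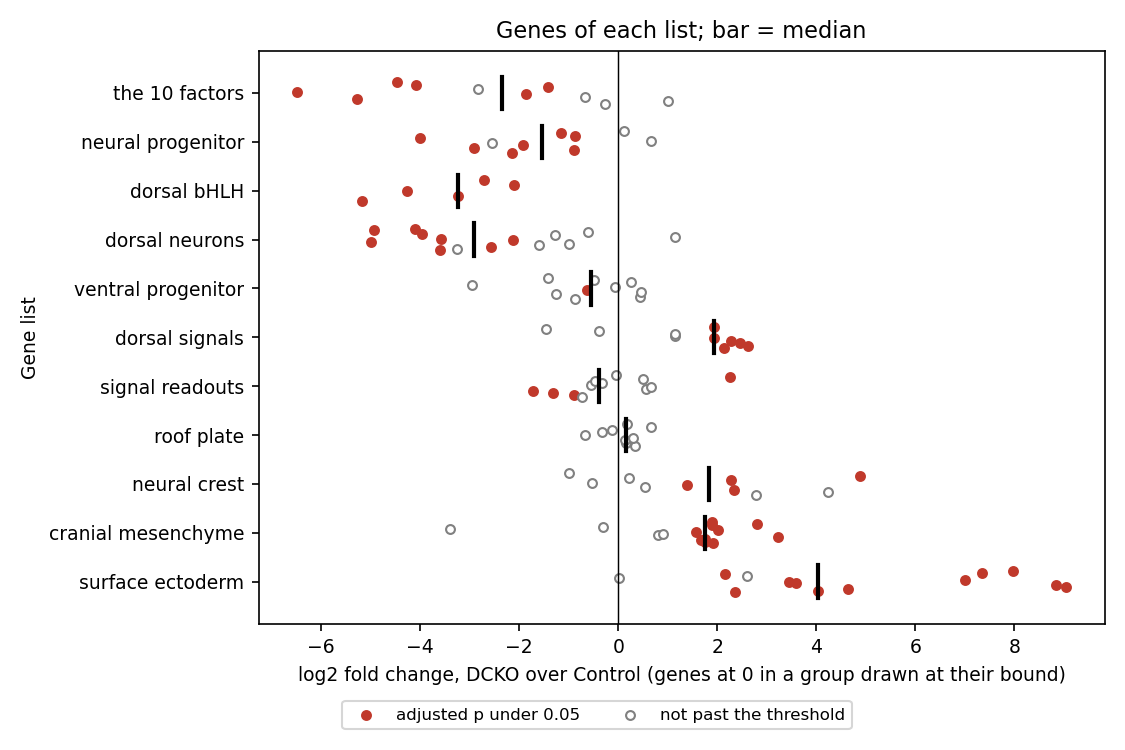
Log2 fold change, DCKO over Control, of the tested genes of each list, with the list median as a bar, and genes at 0 counts in a group drawn at their bound. Red points passed the threshold. By median, the 10 factors (-2.35) lie below 0, as do the dorsal bHLH list (-3.24) and the dorsal neuron list (-2.91). So do the neural progenitor (-1.54), ventral progenitor (-0.56) and signal readout (-0.40) lists. Above 0 lie the dorsal signal (1.93), roof plate (0.16), neural crest (1.83), head mesenchyme (1.75) and surface ectoderm (4.03) lists.

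Some genes had profiles over the 4 libraries close to a member's, measured as the root mean square distance of centred log2 CPM among 11571 protein-coding genes. The nearest to Dbx1 was Neurog1 (distance 0.126), the nearest to Msx3 was Hes5, a Notch target (0.733), and the nearest to Gsx1 was Olig3 (2.12). For Gsx2 it was Dlx2 (1.35), for Msx2 Eya2 (0.0310), for Msx1 Bcl9l (0.0550), for Pax3 Ddx6 (0.0150), for Pax7 Prdm12 (0.0700), for Pax6 Pmepa1 (0.0590) and for Dbx2 Hist2h3c1 (0.914). With 4 libraries such distances describe these libraries only, and Gsx1, with 0 counts in DCKO, had the farthest nearest gene.

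The authors' deposited table lists 8 of the 10 genes and leaves out Gsx2 and Dbx2. At a false discovery rate under 0.05 in the authors' deposited table, 5 were lower (13.2% of its 12574 genes) and 1, Msx2, was higher (15.6%), with a log2 fold change of 1.06 and a rate of 0.0102. Msx1 and Pax3 had rates of 0.709 and 0.0803 in the authors' deposited table. Msx2 is thus the gene on which that table and the quasi-likelihood test differ in their call.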

How the data were processed

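RNA-seq was done on 2 DCKO and 2 Control cranial neural tubes. Per the submitters' processing notes, reads were processed with TopHat2 2.1.1 and StringTie on mm10, and edgeR 3.16.5 and limma 3.30.13 were used. Libraries were made from polyadenylated RNA with a stranded kit, per the labels' protocols, and the strand setting of the counting is not given in the sources used here. The deposited files hold raw read counts per gene made by the authors, TPM by the authors, and the authors' deposited comparison with its log2 fold changes, p-values and FDR. In these 54532 gene IDs, 54409 matched a gene name in GENCODE M21.

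Counts were tested with edgeR 4.0.16 (quasi-likelihood, TMM scaling, filterByExpr with a minimum count of 10 and minimum total of 15, R 4.3.3) in a model with group alone, which leaves 2 residual degrees of freedom, and p-values were adjusted by Benjamini-Hochberg over all 19207 genes that passed. DESeq2 1.42.0, limma 3.58.1 (voom, and log2 of TPM with a pseudocount of 1 or 0.1), other scalings, filters and left-out libraries served as alternatives. Genes with 0 counts in a group are given as bounds from a floor of 3 counts per library, and floors and intervals cover counting error or the spread between libraries only. The labels give each library as its own embryo, and p-values measure the spread between these. Counts of genes at an unadjusted p under 0.05 stand without a background, since the share of all tested genes at that level was not taken.

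Named genes were the 10 members, up to 4 called genes of each list by smallest p (where none was called, the gene with the smallest p), and the gene nearest to each member in profile. The members and gene lists were chosen with earlier results of these data known. The regional lists with their named genes were chosen after their values were seen and outside the rule. So were Cdh2, Shh, Nkx6-1, Sox10, Pax5, Lhx2, Lhx5, Krt5, Krt14, Col1a1, Bmp2, Wnt4, Gdf7, Wnt1, Wnt3, Wnt3a, Id1, Smad6 and Smad7. Axin2, Nkd1, Sp5, Lef1 and Notum were chosen in the same way. The scripts were tested on simulated data. Pseudogene and paralogue reads were not treated separately. Some genes of these lists are not reported here.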

Additional observations from a re-analysis of the deposited data

How the results depend on the processing

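The count of 6 lower genes was 5 to 7 under the other scalings, tools and filters, except for limma on TPM with a pseudocount of 1 and no filter, where 0 of the 10 passed (7 had an unadjusted p under 0.05, lower) and 0 genes passed anywhere. One gene, Msx2, was called higher by DESeq2, which gives 1 in place of 0. Leaving out each library gave 2 to 7 lower and 0 to 1 higher genes. The direction changed for Gsx2 in limma-voom, at 0.19, and for Msx1 without DCKO 1, at 0.18 in a range of -0.91 to 0.18. Gsx2 and Dbx2 were removed by the TPM filter and were not fitted there. The replicate numbers pair nothing in the labels, and same-numbered libraries did not deviate together (r = -0.0285 over 19207 genes). With the replicate block 5 of the 10 were lower (Dbx2, adjusted p 0.0608), with 1002 genes higher and 776 lower overall against 1716 and 1558 without it. Crossed numbers, an alternative chosen after seeing the data, gave 6, with 1810 higher and 1786 lower. DESeq2 called 2602 genes higher and 2594 lower, and library totals 1219 and 3744. TPM with a pseudocount of 1 gave 1007 and 1700, and with 0.1 958 and 1602. Without Control 1, Control 2, DCKO 1 and DCKO 2, 245, 155, 2226 and 2619 genes were higher and 138, 72, 2235 and 2565 lower. The causes of these differences were not tested. Low counts limit Gsx2 and Dbx2, and 2 libraries per group limit all tests.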
